A study of Saccharomyces cerevisiae with 9 samples.

Results

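Binding of Rvb1 and Rvb2 at 46 genes of meiosis and sporulation was measured in budding yeast that was not sporulating. The genes were listed by systematic identifier for their roles in meiotic recombination, chromosome synapsis, meiotic control and spore formation. The rule uses no binding value, but the list was chosen with earlier results of these data known. All 46 were found among the 7036 windows of both deposited tables, and all 46 passed the filter on low counts. Chromatin immunoprecipitation followed by sequencing was done on 3 strains of the W303 background, in which Rvb1, Rvb2 or Pgk1 was fused to TAP, a tag for tandem affinity purification. There were 2 Rvb1 pulldowns, 2 Rvb2 pulldowns, 2 Pgk1 pulldowns and 3 inputs, 1 input for each tagged strain. All 4 groups come from log phase cells, cultured at 30 degrees, that were starved of glucose for 10 min, so no group shows unstarved cells. Rvb1 and Rvb2 are related AAA+ ATPases that work together in chromatin remodelling complexes, and Pgk1 is a glycolytic enzyme used as the control pulldown.

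Meiosis begins when diploid cells that lack nitrogen and a fermentable carbon source switch on the activator Ime1, which brings in the early genes of recombination and synapsis. Ndt80 then turns on the middle genes, which carry the cell through the divisions and wrap each nucleus in a prospore membrane and a spore wall. In growing haploid or rich-medium cells these genes are held off, largely by repressors bound at their promoters. Transcript levels were not measured in these libraries, so whether the 46 genes were silent after 10 min without glucose could not be checked here.

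Each gene has 1 count for a promoter window of 500 bp and 1 count for a gene body window of 500 bp. Promoter counts summed to 1993420 and 1278825 in the Rvb1 pulldowns, 1217928 and 1625081 in the Rvb2 pulldowns, 806134 and 2516799 in the Pgk1 pulldowns and 4342277 to 4636420 in the inputs. The median count of the 46 promoters ran from 83.5 to 336.5 over the 6 pulldowns and from 603.5 to 640.5 over the inputs. A promoter at the mean count of the 46 has a counting error of 5.43% to 10.4% in a pulldown and of 3.96% to 4.07% in an input. The error is larger for promoters with fewer counts, which went down to 58 in the first Rvb2 library. No library exceeded 1151 counts in any window, close to the 1148 distinct positions that single reads of 75 bases allow. Such a ceiling would compress high values if duplicate reads were removed, which the sources used here do not state. Levels below are CPM, counts divided by a library size that was scaled with the trimmed mean of M-values, and each window is 500 bp long, so levels can be set side by side between genes. A gene was called different when edgeR's quasi-likelihood test gave a Benjamini-Hochberg adjusted p under 0.05 over all windows of a table. Whether both pulldowns of a strain are independent cultures is not stated in the labels, and the spread behind the p-values may therefore be technical. An exact permutation test of 2 against 2 libraries cannot go below p = 0.333.

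The 46 genes held a smaller share of the reads in the Rvb1 pulldowns than in the Pgk1 pulldowns and the inputs. Their promoters took 0.393% and 0.498% of promoter counts in the Rvb1 pulldowns, 0.449% and 0.532% in the Rvb2 pulldowns, 0.526% and 0.619% in the Pgk1 pulldowns and 0.630% to 0.640% in the inputs. The Rvb1 libraries lay below both Pgk1 libraries, whereas the second Rvb2 library lay just above the first Pgk1 library. The median promoter level of the 46 genes was 82.8 and 104 CPM in the Rvb1 pulldowns, 94.2 and 112.5 CPM in the Rvb2 pulldowns, 111 and 131 CPM in the Pgk1 pulldowns and 131 to 135 CPM in the inputs. The median of all promoter windows was between 132 and 136 CPM in every library. The gene bodies gave the same order of pulldown libraries, with medians of 73.9 and 104 CPM in the Rvb1 pulldowns, 96.7 and 114 CPM in the Rvb2 pulldowns, 112 and 129.6 CPM in the Pgk1 pulldowns and 129.5 to 130.5 CPM in the inputs. The 2 libraries of a pulldown also differed from each other: the second stood closer to the inputs in all 3 strains, and the first Pgk1 library itself lay below the inputs.

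**Figure D1:**
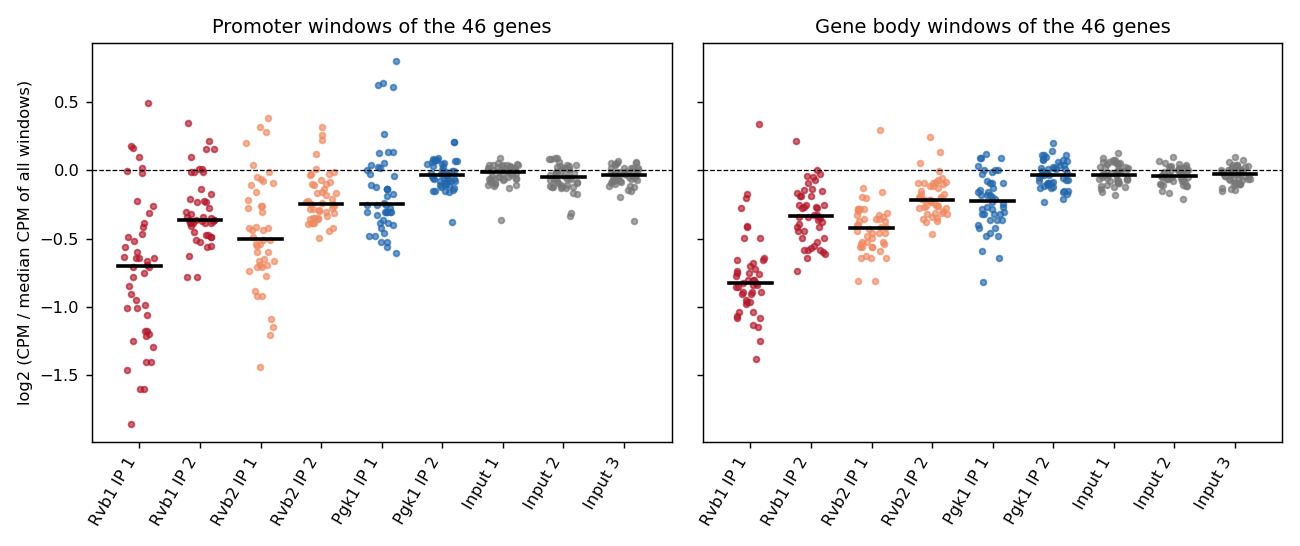
Level of each of the 46 genes in each library, as the log2 ratio of its CPM to the median CPM of all windows of that library (y axis), for promoter windows (left) and gene body windows (right). Points are genes, black bars are medians over the 46 genes and the dashed line is the median of all windows. The medians lie lowest in the first Rvb1 library, at 82.8 CPM for promoters and 73.9 CPM for gene bodies, and the input points lie close to the line.

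The genes differed most among themselves in the first library of each pulldown. The coefficient of variation over the 46 promoters was 38.1% and 18.2% in the Rvb1 pulldowns, 28.3% and 13.7% in the Rvb2 pulldowns, 26.1% and 7.12% in the Pgk1 pulldowns and 4.83% to 6.15% in the inputs. In the inputs this is close to the counting error of 3.96% to 4.07%, and in the first Rvb1 library it is well above the counting error of 7.67%. The lowest promoter of that library was SPO21 at 37.2 CPM and the highest was SMK1 at 189 CPM. Of the 46 promoters, 41 and 39 lay under the all-window median in the Rvb1 pulldowns, 41 and 41 in the Rvb2 pulldowns, 33 and 30 in the Pgk1 pulldowns and 24 to 33 in the inputs.

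At the promoters, 15 of the 46 genes were lower in the Rvb1 pulldowns than in the Pgk1 pulldowns and none was higher. The background over every promoter window was 24.3% called, with 12.3% higher and 12.0% lower, so the members' share of lower calls, 32.6%, stood above that background. The median log2 fold change was -0.45 over the 46 promoters and -0.05 over all promoters, 39 of the 46 were negative, and 29 of the 46 lay under the percentile 25 of all promoters. Both Rvb1 libraries lay below both Pgk1 libraries at 27 of the 46 promoters (background 28.2%). The 15 were DMC1, MSH5, HOP2, CST9, REC102, REC8, SSP1, SPS4, MSH4, CDA1, SPR28, SPS1, CDA2, IME2 and SPO20, with log2 fold changes from -1.02 to -0.28. The count rested on single libraries: it was 0 without the first Rvb1 pulldown, 32 without the second Rvb1 pulldown (with 25.6% of all promoters lower), 4 without the second Pgk1 pulldown (MSH4, SPO74 and SPO11 lower, MND1 higher), and 6, 6 and 8 without the input of the Rvb1, Rvb2 and Pgk1 strain. With the pulldowns alone in the fit it was 3, namely DMC1, MSH4 and SPO74, and with each pulldown set against its own input it was 0. DESeq2 called 22 lower and none higher, where 16.0% of all promoters were lower and 14.2% higher. The median stayed negative when any library was left out, between -0.63 and -0.27. Where no share of all promoters stands beside a count, that count does not show whether calls changed among the 46 alone.

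**Figure D2:**
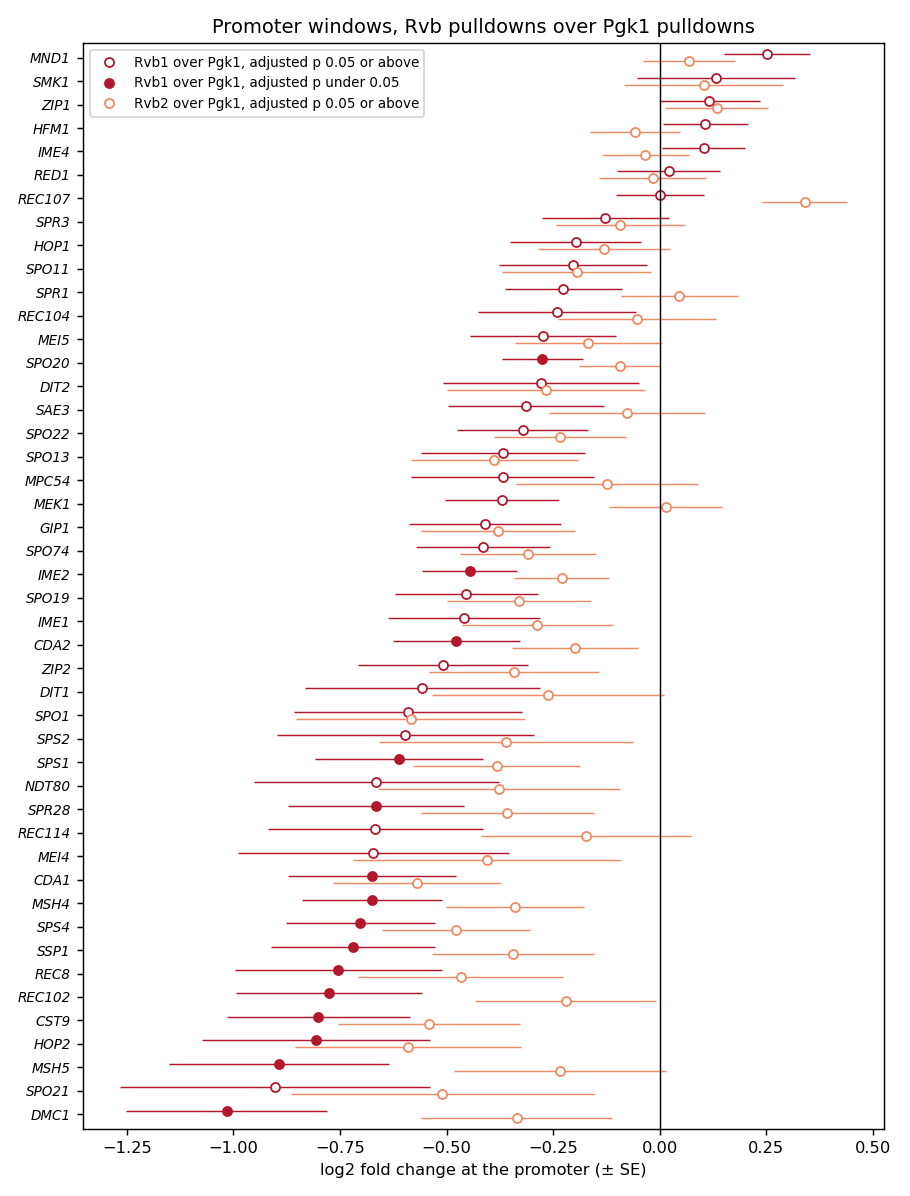
Log2 fold change of each of the 46 promoters in the Rvb1 pulldowns (dark red) and the Rvb2 pulldowns (orange) over the Pgk1 pulldowns, sorted by the Rvb1 value, with bars of 1 SE. Filled points have an adjusted p under 0.05. The values in Rvb1 run from 0.25 at MND1 to -1.02 at DMC1, 15 are filled, and no Rvb2 point is.

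In the gene bodies, 15 of the 46 genes were lower in the Rvb1 pulldowns than in the Pgk1 pulldowns and 1, REC107, was higher. Over all gene bodies 13.8% were called, 6.70% higher and 7.08% lower, and the members' share of lower calls was again 32.6%. The median was -0.50 over the 46 gene bodies and -0.05 over all gene bodies, with 44 of 46 negative and 41 of 46 under the percentile 25 of all gene bodies. Both Rvb1 libraries lay below both Pgk1 libraries at 29 of the 46 gene bodies (background 24.9%). The 15 were SPS4, MEK1, SPO13, IME2, RED1, SPO20, SPS1, SPR28, REC8, SPO11, ZIP1, NDT80, SPO74, MSH4 and IME4. The total of 16 calls became 0 without the first Rvb1 pulldown or without the second Pgk1 pulldown, and 42, of which 41 were lower, without the second Rvb1 pulldown (with 23.5% of all gene bodies lower). It was 25 without either Rvb2 pulldown, 2 without the input of the Rvb1 or the Rvb2 strain, and 7 without that of the Pgk1 strain. With the pulldowns alone it was 2, SPO20 and SPS4, and with each pulldown set against its own input it was 0. With library totals as the scale it was 9, all lower, and DESeq2 called 22 lower and 1 higher, where 8.97% of all gene bodies were lower and 9.71% higher. Left-out libraries moved the median between -0.77 and -0.29. Counts without a share of all gene bodies beside them do not show whether calls changed among the 46 alone.

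Both windows were lower at 7 genes, IME2, MSH4, REC8, SPO20, SPR28, SPS1 and SPS4, which is 46.7% of the promoter list and 46.7% of the gene body list. At 23 of the 46 genes 1 window or both were lower, and at the other 23 neither was. The overlap of the 2 windows was not counted over all genes, so these counts do not compare the 46 with other genes. The log2 fold changes of the 2 windows were weakly related over the 46 genes (Pearson r = 0.24, Spearman rho = 0.18), which is a description only, since both windows share their libraries.

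**Figure D3:**
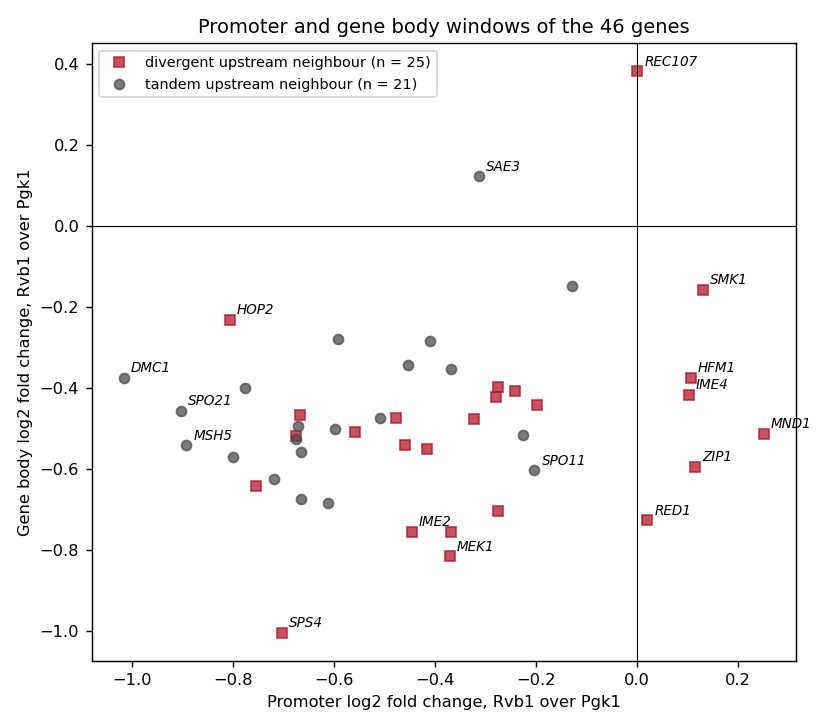
Log2 fold change of Rvb1 over Pgk1 at the promoter (x axis) and in the gene body (y axis) of each of the 46 genes, with squares for genes whose upstream neighbour is divergent and circles for genes whose upstream neighbour is tandem. All but REC107 and SAE3 lie below 0 on the y axis, and the promoters at 0 or above on the x axis are squares.

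Among the genes that make meiotic breaks, 1 of 6 promoters was called. REC102 (YLR329W), which encodes an accessory protein of break formation, was called lower at its promoter. The REC102 promoter had 55.0 and 90.2 CPM in the Rvb1 pulldowns, 99.3 and 108 CPM in the Rvb2 pulldowns, 106 and 131 CPM in the Pgk1 pulldowns and 136, 135 and 135 CPM in the inputs. The Rvb1 libraries lay below both Pgk1 libraries and every input, with a log2 fold change over Pgk1 of -0.78 (SE 0.22, adjusted p = 0.0268). REC114 (YMR133W), another accessory gene, came to -0.67 (SE 0.25, adjusted p = 0.0625) at its promoter and was not called. The median over the 6 break genes was -0.45 at promoters.

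SPO11 (YHL022C) encodes the transesterase that cuts the DNA, and its promoter level was high in all pulldowns. The SPO11 promoter had 152 and 169 CPM in the Rvb1 pulldowns, 162 and 159.6 CPM in the Rvb2 pulldowns, 229 and 154 CPM in the Pgk1 pulldowns and 139, 126 and 137 CPM in the inputs. All pulldowns lay above all inputs, and the highest value by far was in the first Pgk1 library. Over Pgk1 the Rvb1 log2 fold change was -0.20 (SE 0.17, adjusted p = 0.375), not called, and it was 0.04 without that Pgk1 library. The SPO11 gene body had 81.9 and 103 CPM in the Rvb1 pulldowns, 112 and 116 CPM in the Rvb2 pulldowns, 138 and 139 CPM in the Pgk1 pulldowns and 127, 135 and 133 CPM in the inputs. There the Rvb libraries lay below both Pgk1 libraries, and the Rvb1 log2 fold change was -0.60 (SE 0.13, adjusted p = 0.0252). The upstream neighbour of SPO11 is AIM17, in tandem.

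REC107 (YJR021C), also called MER2, encodes another accessory protein of break formation and went against the other genes. The REC107 gene body had 165 and 153 CPM in the Rvb1 pulldowns, 159 and 156 CPM in the Rvb2 pulldowns, 112 and 127 CPM in the Pgk1 pulldowns and 132, 136 and 131 CPM in the inputs. All 4 Rvb libraries lay above the Pgk1 libraries and the inputs, which 1 of the 46 gene bodies showed against Pgk1 (background 13.5%) and 1 against the inputs (background 28.3%). The Rvb1 log2 fold change was 0.38 (SE 0.12, adjusted p = 0.0433) over Pgk1, and the Rvb2 value was 0.36 (SE 0.12, adjusted p = 0.417), not called. At the promoter REC107 had 115 and 132 CPM in the Rvb1 pulldowns, 153 and 156 CPM in the Rvb2 pulldowns, 116 and 124 CPM in the Pgk1 pulldowns and 131, 132 and 125 CPM in the inputs. There both Rvb2 libraries stood above both Pgk1 libraries, as did the second Rvb1 library and the inputs. The log2 fold change over Pgk1 was 0.00033 (SE 0.10) for Rvb1, whose sign turned under several alternatives. For Rvb2 it was 0.34 (SE 0.10, adjusted p = 0.188). The gene is divergent from LSM8, which encodes an Lsm protein of RNA processing.

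DMC1 (YER179W) encodes the meiotic recombinase that pairs broken DNA with the homologous chromosome, and its promoter had the lowest log2 fold change of the 46. The DMC1 promoter had 48.9 and 105 CPM in the Rvb1 pulldowns, 98.5 and 131 CPM in the Rvb2 pulldowns, 158 and 141 CPM in the Pgk1 pulldowns and 136, 139 and 132 CPM in the inputs. Both Rvb1 libraries lay below both Pgk1 libraries and the inputs, and the first Rvb1 library was the lowest of all. The log2 fold change in Rvb1 was -1.02 (SE 0.24, adjusted p = 0.0165), whereas that in Rvb2 was -0.34 (SE 0.22, adjusted p = 0.418). Over the body of DMC1 the Rvb1 value was -0.37 (SE 0.19, adjusted p = 0.158), not called. The upstream neighbour of DMC1 is PDA1, in tandem, which encodes a subunit of pyruvate dehydrogenase.

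Hop2 and Mnd1 act as 1 complex that stimulates Dmc1, and their genes had unlike promoters. The HOP2 (YGL033W) promoter had 59.6 and 103 CPM in the Rvb1 pulldowns, 60.3 and 119 CPM in the Rvb2 pulldowns, 132 and 142 CPM in the Pgk1 pulldowns and 137, 139 and 130.2 CPM in the inputs. The Rvb1 libraries lay below both Pgk1 libraries, with a log2 fold change of -0.81 (SE 0.27, adjusted p = 0.0431). The MND1 (YGL183C) promoter had 150.3 and 143 CPM in the Rvb1 pulldowns, 129 and 130.3 CPM in the Rvb2 pulldowns, 102 and 131 CPM in the Pgk1 pulldowns and 136, 137 and 137 CPM in the inputs. Its Rvb1 libraries were the highest of the 9, and the log2 fold change of 0.25 (SE 0.10, adjusted p = 0.0748) was not called. The MND1 gene body had 70.5 and 88.0 CPM in the Rvb1 pulldowns, 106 and 106 CPM in the Rvb2 pulldowns, 94.5 and 122 CPM in the Pgk1 pulldowns and 122, 124 and 124 CPM in the inputs, so that here the Rvb1 libraries were the lowest. MND1 is divergent from GTS1, and HOP2 from YGL034C. SAE3 (YHR079C-A) and MEI5 (YPL121C) encode partners that load Dmc1, and neither was called in either window. SAE3 came to -0.31 (SE 0.18) at the promoter and 0.12 (SE 0.16) in the gene body, one of the 2 gene bodies above 0, and MEI5 to -0.27 (SE 0.17) and -0.40 (SE 0.18).

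Of the genes of the chromosome axis and the synaptonemal complex, REC8 (YPR007C) alone was called at its promoter, and 4 of 5 were called lower in the gene body. REC8 encodes the meiotic kleisin of cohesin. The REC8 promoter had 58.6 and 95.0 CPM in the Rvb1 pulldowns, 78.1 and 104 CPM in the Rvb2 pulldowns, 106 and 141 CPM in the Pgk1 pulldowns and 130.1, 125 and 125 CPM in the inputs. The Rvb1 libraries lay below both Pgk1 libraries, and the Rvb2 libraries below every input. The Rvb1 log2 fold change was -0.75 (SE 0.24, adjusted p = 0.0386) at the promoter and -0.64 (SE 0.18, adjusted p = 0.0356) in the gene body.

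RED1 (YLR263W) encodes an axis protein and MEK1 (YOR351C) the kinase that works with it to steer repair towards the homologous chromosome. The RED1 promoter had 134 and 134 CPM in the Rvb1 pulldowns, 111 and 145 CPM in the Rvb2 pulldowns, 109 and 139.7 CPM in the Pgk1 pulldowns and 136, 139 and 141 CPM in the inputs. The groups overlapped there, with a Rvb1 log2 fold change of 0.02 (SE 0.12), which was -0.06 without the first Pgk1 library. The RED1 gene body had 73.9 and 88.8 CPM in the Rvb1 pulldowns, 101 and 112 CPM in the Rvb2 pulldowns, 109.5 and 144 CPM in the Pgk1 pulldowns and 141, 134 and 133 CPM in the inputs. The Rvb1 libraries lay below all Pgk1 libraries and inputs, with a log2 fold change of -0.73 (SE 0.16, adjusted p = 0.0269). MEK1 came to -0.37 (SE 0.13, adjusted p = 0.0559) at the promoter and -0.81 (SE 0.21, adjusted p = 0.0314) in the gene body, and only the gene body was called.

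ZIP1 (YDR285W) encodes the transverse filament of the synaptonemal complex. The ZIP1 promoter had 144 and 148 CPM in the Rvb1 pulldowns, 166 and 132 CPM in the Rvb2 pulldowns, 137 and 134 CPM in the Pgk1 pulldowns and 141, 144 and 139.7 CPM in the inputs, and its log2 fold change in Rvb1 was 0.12 (SE 0.12, adjusted p = 0.461). Its gene body had 70.5 and 89.7 CPM in the Rvb1 pulldowns, 97.2 and 127 CPM in the Rvb2 pulldowns, 108 and 126 CPM in the Pgk1 pulldowns and 126, 129 and 128 CPM in the inputs. At the promoter both Rvb1 libraries lay above both Pgk1 libraries, as they did at 3 of the 46 promoters, HFM1 (YGL251C), MND1 and ZIP1 (background 28.4%). In the gene body they lay below all Pgk1 libraries and inputs, at -0.59 (SE 0.18, adjusted p = 0.0435). HOP1 (YIL072W), which encodes the HORMA-domain protein of the axis, was called in neither window, at -0.20 (SE 0.15, adjusted p = 0.327) for the promoter and -0.44 (SE 0.17, adjusted p = 0.0842) for the gene body. It is divergent from SPO22 (YIL073C), another of the 46 genes.

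Among the genes that turn breaks into crossovers, 3 of 6 promoters were lower in Rvb1 and the median was -0.59. Msh4 and Msh5 form a clamp that stabilises crossover intermediates. The MSH5 (YDL154W) promoter had 44.3 and 77.4 CPM in the Rvb1 pulldowns, 81.5 and 105 CPM in the Rvb2 pulldowns, 95.7 and 120.3 CPM in the Pgk1 pulldowns and 134, 136 and 132 CPM in the inputs. Both Rvb1 libraries were below all others, and the log2 fold change was -0.89 (SE 0.26, adjusted p = 0.029). The MSH4 (YFL003C) promoter had 86.1 and 134 CPM in the Rvb1 pulldowns, 132 and 135 CPM in the Rvb2 pulldowns, 205 and 154 CPM in the Pgk1 pulldowns and 140.0, 144 and 137 CPM in the inputs. It was high in the first Pgk1 library, and the log2 fold change of -0.67 (SE 0.17, adjusted p = 0.0184) was one of the 3 that passed with the pulldowns alone. CST9 (YLR394W), also called ZIP3, encodes the SUMO ligase of the group and came to -0.80 (SE 0.22, adjusted p = 0.0229). HFM1, also called MER3, encodes a helicase of the same pathway, and its promoter value was 0.11 (SE 0.10, adjusted p = 0.416). It faces RMR1 as its divergent neighbour, and RMR1 lies in tandem upstream of ZIP2 (YGL249W).

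Among the regulators, IME2 (YJL106W) was the only promoter called lower. IME1 (YJR094C) encodes the activator of meiotic entry, IME2 a kinase that acts after it and NDT80 (YHR124W) the factor of the middle genes. The IME1 promoter had 82.5 and 104 CPM in the Rvb1 pulldowns, 91.7 and 114 CPM in the Rvb2 pulldowns, 110.3 and 136 CPM in the Pgk1 pulldowns and 139, 125 and 133 CPM in the inputs. Rvb1 libraries lay below Pgk1 libraries, but the log2 fold change of -0.46 (SE 0.18, adjusted p = 0.0674) was not called. The IME2 promoter had 93.8 and 114 CPM in the Rvb1 pulldowns, 115 and 122 CPM in the Rvb2 pulldowns, 134 and 141 CPM in the Pgk1 pulldowns and 138, 135 and 135 CPM in the inputs. Again the Rvb1 libraries lay below those of Pgk1, here with little spread, and the log2 fold change was -0.45 (SE 0.11, adjusted p = 0.0189) at the promoter and -0.75 (SE 0.22, adjusted p = 0.0398) in the gene body. IME1 is divergent from RPL43B, a ribosomal protein gene.

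The NDT80 promoter had 51.0 and 105 CPM in the Rvb1 pulldowns, 70.5 and 112 CPM in the Rvb2 pulldowns, 110.3 and 127 CPM in the Pgk1 pulldowns and 130.1, 131 and 134 CPM in the inputs. The 2 Rvb1 libraries stood far apart and both were below Pgk1, so that -0.66 (SE 0.29, adjusted p = 0.093) was not called while the gene body, at -0.56 (SE 0.16, adjusted p = 0.0383), was. SPO13 (YHR014W), a regulator of the first division, came to -0.76 (SE 0.16, adjusted p = 0.0242) in the gene body, and its promoter value of -0.37 (SE 0.19, adjusted p = 0.154) was not called and was 0.04 without the second Pgk1 library. IME4 (YGL192W) encodes the RNA methyltransferase needed for meiotic entry and came to -0.42 (SE 0.11, adjusted p = 0.0319) in the gene body. Its promoter value was 0.10 (SE 0.10, adjusted p = 0.424), and it was -0.04 without the second Pgk1 library.

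Of the 7 genes of the prospore membrane and the spindle pole body, 2 promoters were lower in Rvb1, and all 7 values were negative, with a median of -0.45. SPO21 (YOL091W), a component of the meiotic outer plaque of the spindle pole body, had the second lowest value of the 46 but was not called. The SPO21 promoter had 37.2 and 86.2 CPM in the Rvb1 pulldowns, 49.2 and 105 CPM in the Rvb2 pulldowns, 94.3 and 124 CPM in the Pgk1 pulldowns and 131, 124 and 128 CPM in the inputs. The first Rvb1 and first Rvb2 libraries were far below their second libraries, and the log2 fold change was -0.90 (SE 0.36, adjusted p = 0.0752). SSP1 (YHR184W) encodes the leading edge protein of the prospore membrane. The SSP1 promoter had 64.7 and 91.0 CPM in the Rvb1 pulldowns, 93.4 and 105 CPM in the Rvb2 pulldowns, 122 and 129 CPM in the Pgk1 pulldowns and 134, 129.5 and 131 CPM in the inputs. Both Rvb1 libraries lay below all Pgk1 libraries and inputs, and the value was -0.72 (SE 0.19, adjusted p = 0.0227).

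SPO20 (YMR017W) encodes the SNARE that fuses vesicles into the prospore membrane. It had the smallest of the called promoter changes and one of the 2 gene body calls that held with the pulldowns alone in the fit. The SPO20 promoter had 112 and 118 CPM in the Rvb1 pulldowns, 137 and 125 CPM in the Rvb2 pulldowns, 144 and 137 CPM in the Pgk1 pulldowns and 144, 138 and 140.3 CPM in the inputs, which gave -0.28 (SE 0.09, adjusted p = 0.0477). The SPO20 gene body had 78.6 and 110.2 CPM in the Rvb1 pulldowns, 106 and 124 CPM in the Rvb2 pulldowns, 141 and 153 CPM in the Pgk1 pulldowns and 142, 139.6 and 142 CPM in the inputs, which gave -0.70 (SE 0.13, adjusted p = 0.0177). The Rvb1 libraries lay below both Pgk1 libraries in both windows. SPO74 (YGL170C), another plaque component, was called in the gene body at -0.55 (SE 0.17, adjusted p = 0.0441), and its promoter value was -0.42 (SE 0.16, adjusted p = 0.0623). SPO1 (YNL012W), a phospholipase B homologue, had near-equal promoter values of -0.59 (SE 0.27) in Rvb1 and -0.58 (SE 0.27) in Rvb2, neither of them called.

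Among the 6 genes of the spore wall, the promoters of the chitin deacetylase genes CDA1 (YLR307W) and CDA2 (YLR308W) were lower in Rvb1. The CDA1 promoter had 66.8 and 102 CPM in the Rvb1 pulldowns, 82.4 and 94.7 CPM in the Rvb2 pulldowns, 133 and 132 CPM in the Pgk1 pulldowns and 137, 129 and 139 CPM in the inputs. All 4 Rvb libraries lay below both Pgk1 libraries, and the log2 fold change was -0.67 (SE 0.20, adjusted p = 0.0299) in Rvb1 and -0.57 (SE 0.20, adjusted p = 0.207) in Rvb2. CDA2 came to -0.48 (SE 0.15, adjusted p = 0.0347) in Rvb1. CDA1 and CDA2 are related genes that lie close together, and the sources used here do not state how reads mapping to several places were counted. DIT1 (YDR403W) and DIT2 (YDR402C), the divergent genes of the dityrosine layer, were not called, at -0.56 (SE 0.28, adjusted p = 0.134) for DIT1 and -0.28 (SE 0.23, adjusted p = 0.36) for DIT2. SPR1 (YOR190W), a glucanase gene of sporulation, came to -0.23 (SE 0.14, adjusted p = 0.214) at the promoter, and to 0.059 without the second Pgk1 library. No gene body of the class was called.

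Of the 6 remaining spore genes, SPS4 (YOR313C), SPS1 (YDR523C) and SPR28 (YDR218C) were lower in Rvb1 in both windows. SPS4 is a sporulation-induced gene and had the lowest gene body value of the 46. The SPS4 gene body had 59.8 and 84.4 CPM in the Rvb1 pulldowns, 98.2 and 125 CPM in the Rvb2 pulldowns, 138 and 143 CPM in the Pgk1 pulldowns and 139, 135 and 129 CPM in the inputs. All Rvb libraries lay below all Pgk1 libraries and inputs, and the log2 fold change in Rvb1 was -1.0 (SE 0.16, adjusted p = 0.0165). Its promoter value was -0.70 (SE 0.17, adjusted p = 0.019). The kinase gene SPS1 came to -0.61 (SE 0.20, adjusted p = 0.038) at the promoter and -0.68 (SE 0.15, adjusted p = 0.0293) in the gene body, and the septin gene SPR28 to -0.67 (SE 0.21, adjusted p = 0.0342) and -0.67 (SE 0.16, adjusted p = 0.03).

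SMK1 (YPR054W) encodes the sporulation mitogen-activated protein kinase and had the highest promoter level of the 46 in both Rvb2 libraries and in the first Rvb1 library. The SMK1 promoter had 189 and 155 CPM in the Rvb1 pulldowns, 174 and 166 CPM in the Rvb2 pulldowns, 201 and 130.4 CPM in the Pgk1 pulldowns and 139, 142 and 134 CPM in the inputs. All 4 Rvb libraries lay above all inputs, as they did at 2 of the 46 promoters, SMK1 and SPO11 (background 29.7%). The first Pgk1 library was higher still. The log2 fold change in Rvb1 was 0.13 (SE 0.18, adjusted p = 0.598), and it turned to -0.21 without the second Pgk1 library and to -0.03 without the first Rvb1 library. SMK1 is divergent from YPR053C.

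The other 9 genes were called in neither window in Rvb1 over Pgk1. They are the break genes MEI4 (YER044C-A) and REC104 (YHR157W), the crossover genes ZIP2 and SPO22, the spore membrane and plaque genes SPO19 (YPL130W) and MPC54 (YOR177C), the spore wall gene SPS2 (YDR522C), the septin gene SPR3 (YGR059W) and the phosphatase subunit gene GIP1 (YBR045C). Their promoter values ran from -0.67 (SE 0.32) at MEI4 to -0.13 (SE 0.15) at SPR3, and their gene body values from -0.50 (SE 0.23) at SPS2 to -0.15 (SE 0.16) at SPR3, so all were negative. Without the second Pgk1 library the promoter values were 0.040 for REC104 and 0.0059 for SPR3.

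**Figure D4:**
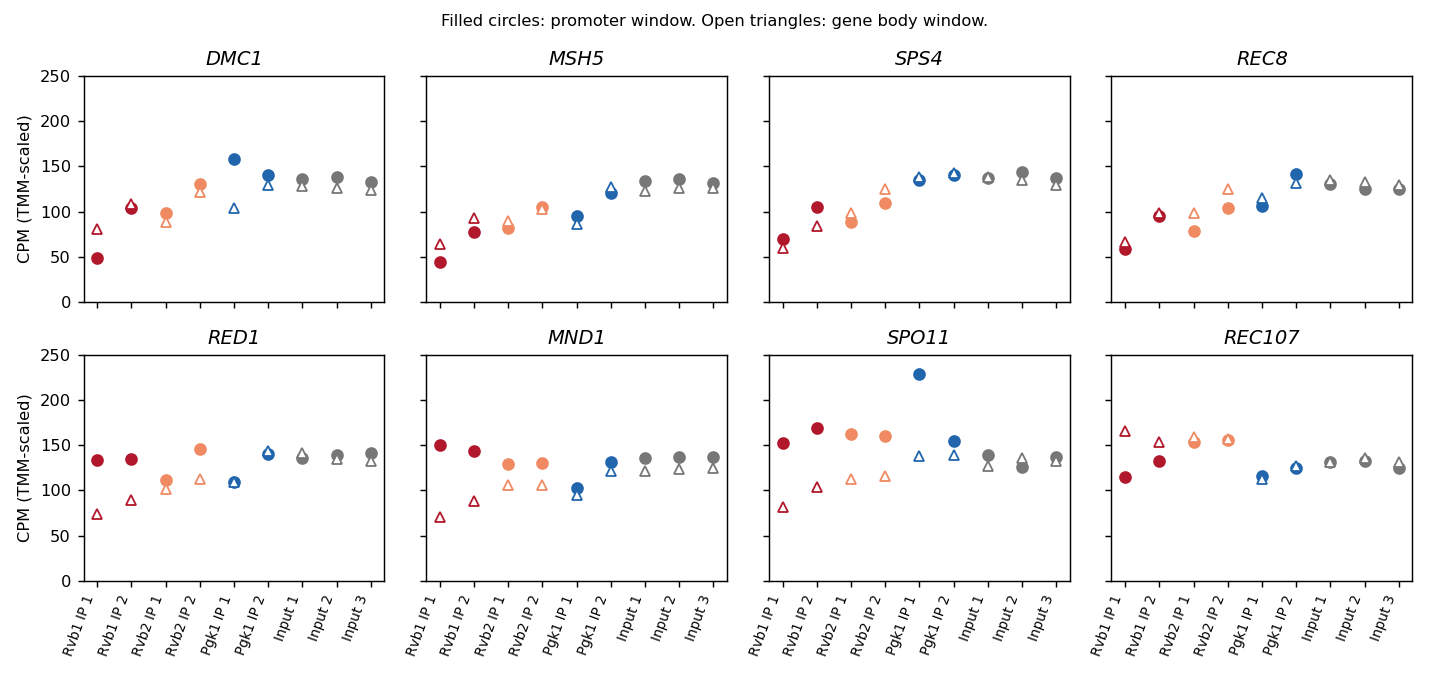
Level in CPM of 8 of the genes in each of the 9 libraries, with filled circles for the promoter window and open triangles for the gene body window (y axis from 0). DMC1, MSH5, SPS4 and REC8 lie lowest in the first Rvb1 library. At RED1, MND1 and SPO11 the promoter lies above the gene body in both Rvb1 libraries, and at REC107 the gene body is highest in the Rvb pulldowns.

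The log2 fold change of Rvb1 over Pgk1 was then compared between the 2 windows of each gene in a single fit, with the library as a block. Both windows of a library had 1 scale in this fit, whereas the fold changes above used a separate scale for each window. A shift of all promoters against all gene bodies therefore stays in the values of this fit. They are not the differences of the fold changes given above. In this fit the log2 fold change was higher at the promoter than in the gene body for 11 of the 46 genes and lower for none. The background was 28.3% of all genes called, 24.5% higher and 3.80% lower. The median difference on the log2 scale was 0.28 over the 46 genes and 0.28 over all genes, so the members equalled the background in this measure. In Rvb2 over Pgk1 no difference between windows was called (0% of all genes). The 11 genes were MND1 at 1.12 (SE 0.17), RED1 at 1.07 (SE 0.16), ZIP1 at 1.04 (SE 0.26), HFM1, IME4, MEK1, SPO11, SPO20, SPO13, SPR1 and SPS4. DMC1 and HOP2 had negative differences, -0.32 (SE 0.19, adjusted p = 0.209) for DMC1 and -0.34 (SE 0.16, adjusted p = 0.124) for HOP2, and were not called. The count was 0 with the pulldowns alone and 0 without the first Rvb1 pulldown, without the second Pgk1 pulldown or without the input of the Rvb1 or the Rvb2 strain. It was 21 without the second Rvb1 pulldown and 3 without the input of the Pgk1 strain (IME4, MND1 and RED1).

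Divergent genes lie head to head, with their starts on the same stretch between genes, so the 46 genes were also set out by their upstream neighbour. How far the windows of such a pair overlap was not analysed here. The neighbour was divergent for 25 genes and tandem for 21. The median promoter log2 fold change of Rvb1 over Pgk1 was -0.32 for the divergent genes and -0.61 for the tandem genes. Lower calls numbered 7 of 25 and 8 of 21, beside 12.0% of all promoters whatever their neighbour. Negative values numbered 18 of 25 and 21 of 21. In the gene body the medians were -0.51 for divergent and -0.49 for tandem genes. Of the 11 genes with a difference between windows, 9 were divergent, and the median difference was 0.45 for divergent and 0.13 for tandem genes. These splits are descriptions, and the difference between them was not tested. All genes of the series were not split by neighbour, so whether the 46 differ from other genes in this respect cannot be told here.

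The Rvb2 medians were negative as well, but no gene was called. At promoters the median log2 fold change of Rvb2 over Pgk1 was -0.25 over the 46 genes and -0.03 over all genes. No member and no promoter at all was called (0% of all windows). Of the 46, 6 had an unadjusted p under 0.05, beside 1227 of all 7034 promoters. The 46 did not exceed the background in this count. DESeq2 also called 0 of the 46 (3.14% of all promoters), with 12 under that p, beside 1379 of all 7036 promoters. In the gene bodies the median was -0.22, beside -0.03 over all gene bodies, with 0 called by edgeR or DESeq2 (0% of all gene bodies). Under an unadjusted p of 0.05 were 9 with edgeR and 10 with DESeq2. Over all gene bodies these counts were 760 of 7035 and 753 of 7036. The lowest Rvb2 promoters were HOP2 at -0.59 (SE 0.27), SPO1 at -0.58 (SE 0.27) and CDA1 at -0.57 (SE 0.20), and the highest were REC107 at 0.34 (SE 0.10), ZIP1 at 0.13 (SE 0.12) and SMK1 at 0.10 (SE 0.19). Without the second Pgk1 pulldown the medians were -0.09 at promoters and -0.03 in gene bodies. The Rvb1 and Rvb2 comparisons share the Pgk1 libraries.

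Set directly against each other, the Rvb1 and Rvb2 pulldowns differed at none of the 46 promoters and none of the 46 gene bodies (0% of all windows in each). An unadjusted p under 0.05 was reached by 5 promoters and 11 gene bodies with edgeR. Over all windows it was reached by 416 of 7034 promoters and 518 of 7035 gene bodies. With DESeq2 it was reached by 6 promoters and 12 gene bodies, beside 379 and 480 of 7036 windows. DESeq2 also called none of the 46 (0.0142% of all promoters, 0% of gene bodies). The median log2 fold change of Rvb1 over Rvb2 was -0.22 at promoters and -0.27 in gene bodies, beside -0.007 and -0.008 over all windows. DMC1 came to -0.68 (SE 0.25, adjusted p = 0.792) and MSH5 to -0.66 (SE 0.26, adjusted p = 0.792). A p that misses the threshold does not show that the 2 proteins bind alike. Without the second Rvb1 pulldown, 4 promoters (DMC1, MSH4, MSH5 and REC102) and 10 gene bodies were lower in Rvb1 than in Rvb2, where 2.52% of all promoters and 2.44% of all gene bodies were.

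Against the inputs most of the genes were lower in Rvb1. In Rvb1, 31 of the 46 promoters were lower and none higher, with 51.8% of all promoters called, 25.4% higher and 26.4% lower. The median was -0.53 over the 46 promoters and -0.0042 over all promoters. Taken at gene bodies as well, a comparison added after the promoter results were seen, 40 of the 46 were lower and 1, REC107 at 0.27 (SE 0.09, adjusted p = 0.0295), was higher, with 48.9% of all gene bodies called, 23.2% higher and 25.7% lower. The lowest promoters were MSH5 at -1.17 (SE 0.23, adjusted p = 0.00462), SPO21 at -1.10 (SE 0.33, adjusted p = 0.0143) and REC102 at -0.93 (SE 0.19, adjusted p = 0.00498). With library totals as the scale, 36 promoters and 44 gene bodies were lower and none higher, and all promoters split into 19.5% higher and 31.4% lower and all gene bodies into 16.1% and 35.9%. With each pulldown against its own input, DMC1 was the single promoter called and no gene body was. The calls also rested on the first Rvb1 pulldown and on the inputs. Without the input of the Rvb1 strain 20 promoters and 22 gene bodies were lower. The share of all windows called in that fit is not given here, so these counts do not compare the 46 with other genes.

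The 29 genes lower than the inputs in both windows of Rvb1 were 93.5% of the promoter list and 72.5% of the gene body list, and 4 genes were lower in neither. This overlap was not counted over all genes, so whether it differs for the 46 cannot be told here. In Rvb2, none of the 46 promoters or gene bodies was called with edgeR (0% of all windows). Of each, 20 had an unadjusted p under 0.05, beside 2676 of all 7034 promoters and 2141 of all 7035 gene bodies. The Rvb2 medians were -0.32 and -0.28, beside -0.01 over all promoters and -0.02 over all gene bodies. DESeq2 called 10 of the Rvb2 promoters lower, with 7.96% of all promoters called lower and 13.3% higher. It called none of the 46 gene bodies, where 0% of all gene bodies were lower and 13.6% higher. In Pgk1 the medians were -0.07 and -0.06, beside -0.02 over all promoters and -0.006 over all gene bodies. With edgeR 0 of 46 were called in each window (0% of all windows). Under an unadjusted p of 0.05 were 2 promoters and 0 gene bodies, beside 677 of all 7034 promoters and 601 of all 7035 gene bodies. DESeq2 called 1 promoter, SPO11, higher (4.60% of all promoters).

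Another 59 genes of the same pathways were examined beside the 46, in lists of meiotic machinery, of meiotic repression and signals and of spore formation. At their promoters 9 were lower and 4 higher in Rvb1 than in Pgk1, with a median log2 fold change of -0.17, beside 12.0% of all promoters lower and 12.3% higher. Their lower share of 15.3% in this 1 comparison was thus near that background. The list of repression and signals had a median of 0.12 with 2 higher and 1 lower of 16. The list of machinery had 5 lower and 0 higher of 22, and that of spore formation 3 lower and 2 higher of 21. The 6 with the smallest p were the kinase gene MCK1 at 0.97 (SE 0.21), the phospholipase D gene SPO14 at 0.88 (SE 0.19), the spore wall gene OSW1 at 0.55 (SE 0.13), the plaque gene ADY4 at -0.43 (SE 0.11), the histone deacetylase gene RPD3 at 0.66 (SE 0.17) and the recombination gene SAE2 at -0.52 (SE 0.15). In Rvb2 over Pgk1 none of the 59 promoters was called, and 9 had an unadjusted p under 0.05, beside 1227 of all 7034 promoters. In the gene bodies of the 59, 13.6% were lower and 3.39% higher in Rvb1 than in Pgk1, beside 7.08% and 6.70% of all. Against the inputs, 39.0% of their promoters were lower in Rvb1 and 16.95% higher, beside 26.4% and 25.4% of all promoters. For their gene bodies these shares were 52.5% and 8.5%, beside 25.7% and 23.2% of all. Lower levels than the inputs were thus not particular to the 46 genes.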

How the data were processed

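The values are raw read counts per gene, which the authors deposited as 1 table of 500 bp promoter windows and 1 table of 500 bp gene body windows. Per the submitters' processing notes the tools were bedtools, Bowtie2, deepTools, FastQC, Picard and SAMtools. Not given in the sources used here were their order and versions, the genome build, the placement of the windows and the handling of duplicate and multiply mapped reads. The 46 genes and the companion lists were chosen with earlier results of these data known. Symbols and upstream neighbours came from RefSeq's R64 table, in which 5956 of 7036 identifiers matched a locus tag.

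Counts were tested with edgeR 4.0.16 (filterByExpr, TMM, quasi-likelihood F-test) in R 4.3.3 over all windows, with 9 libraries in 4 groups and 5 residual degrees of freedom. Standard errors are the fold change over the root of F. A joint fit of both windows with the library as a block, on 1 scale per library, tested promoter against gene body. Scripts were tested on simulated counts. Alternatives were DESeq2 1.42.0, other scalings, no filter, a correction for the count ceiling, own inputs, pulldowns alone, a replicate block and left-out libraries. Genes were named in the text if called over Pgk1 in the edgeR fit of all libraries for either window or in the joint fit. Calls under the alternatives did not count. Also named were the 3 highest and lowest promoter values, the 2 smallest p per role and 10 well-known genes. The 11 genes with none of these features are named to complete the list. Gene bodies against the inputs, and Rvb1 against Rvb2 there, were added after the data were seen.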

Additional observations from a re-analysis of the deposited data

How the results depend on the processing

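The medians of Rvb1 and Rvb2 over Pgk1 stayed negative in both windows under all alternatives tried, while the counts of called genes varied. With the pulldowns alone, promoter calls in Rvb1 over Pgk1 numbered 3, gene body calls 2 and calls of a difference between windows 0. Adding the replicate number as a replicate block gave 18 and 25 for promoters and gene bodies. Against the promoters called with all libraries, the block added MEI4, NDT80, REC114 and SPO21 and dropped SPO20. The labels do not say what the replicate numbers mean. Deviations of same-numbered libraries correlated at 0.23 to 0.73, which is a hint from the data and not from the design. With own inputs, Rvb1 over Pgk1 gave 0 in both windows, and Rvb1 over Input gave 1 promoter and 0 gene bodies. Library totals gave 9 gene bodies in Rvb1 over Pgk1, and moved the median of all gene bodies in Rvb1 over Input to -0.16 from -0.01, with the 46 at -0.69. DESeq2 gave 10 promoters in Rvb2 over Input and 1 in Pgk1 over Input. The causes were not tested.

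Leaving out 1 library gave 0 to 32 promoters and 0 to 42 gene bodies in Rvb1 over Pgk1, 0 to 4 and 0 to 10 in Rvb1 over Rvb2, 0 to 37 and 0 to 44 in Rvb1 over Input, 0 to 24 and 0 to 20 in Rvb2 over Input, 0 to 3 promoters in Pgk1 over Input, and 0 to 21 differences between windows. In Rvb2 over Input the promoter count changed with the pulldown that was left out. The counts in these ranges do not separate higher from lower calls. No share of all windows stands beside them, so they do not show whether calls changed among the listed genes alone. A group left with 1 library was assumed to vary like the others. Medians ranged from -0.63 to -0.27 and -0.37 to -0.09 at promoters, and from -0.77 to -0.29 and -0.38 to -0.035 in gene bodies, for Rvb1 and Rvb2 over Pgk1.

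Promoter values of Rvb1 over Pgk1 that changed sign belonged to 9 of the 46 genes, none of them called with all libraries. With 1 library left out, IME4 ran from -0.040 to 0.17, SPO11 from -0.52 to 0.044, SPO13 from -0.60 to 0.037, REC104 from -0.43 to 0.040, SPR3 from -0.26 to 0.0059, REC107 from -0.091 to 0.11, RED1 from -0.059 to 0.30, SPR1 from -0.34 to 0.059 and SMK1 from -0.21 to 0.42. REC107 was -0.018 with library totals, -0.0029 with the ceiling correction and -0.049 with own inputs.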
